A study of Homo sapiens with 18 samples.

Results

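The Eph receptors and their ligands, the ephrins, were followed here through 10 genes, of 16575 genes measured. They were taken by symbol and comprised 7 receptors (EPHA1, EPHA2, EPHA4, EPHB2, EPHB3, EPHB4 and EPHB6) and 3 ligands (EFNA1, EFNB1 and EFNB2). The study used 3 human cell lines of urinary bladder carcinoma (CAL-29, HT-1376 and RT-112) and 6 variants of each, which gave 18 CAGE libraries with 1 library per variant and line. CAGE sequences the capped 5′ ends of transcripts, so that a level in CPM (reads of a gene scaled to a common library total) does not scale with transcript length and can be set beside that of another gene. Each variant went through a pair of stable lentiviral transductions with antibiotic selection. The first letter of a variant gives the first transduction, with K for the control and W for WWOX, a tumour suppressor with WW domains. The second letter gives the second, with K for the control, A for AP-2α and C for AP-2γ, which are transcription factors that recognise GC-rich sites. The variants were therefore KK, KA, KC, WK, WA and WC, and every one, KK included, had been transduced and selected. Per the labels, the second transduction was made on variants that had or lacked WWOX. Where the W variants of a line came from one such population, a difference between W and K cannot be told apart from a difference between founding populations. No label states that libraries came from separate cultures, and p-values therefore measure the spread between these libraries only.

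Eph receptors are the largest family of receptor tyrosine kinases. Their ligands stay bound to the membrane, so that signalling needs contact between neighbouring cells and can run forward into the cell with the receptor or in reverse into the cell with the ephrin. Class A ephrins are held by a lipid anchor and class B ephrins cross the membrane, and receptors bind mainly ligands of their own class, with EPHA4 as a known exception. In epithelia the family is known for keeping cell populations apart and for setting boundaries.

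The libraries held between 13357102 and 17958572 reads on genes. The library labelled CAL-29 KC stood apart. The median Pearson r of its log2 CPM with the HT-1376 libraries was 0.940, against 0.741 with the other CAL-29 libraries. Of the 10 family genes, 7 fell within the HT-1376 range in that library and 3 within the range of the other 5 CAL-29 libraries. It is shown apart below and stayed out of the comparisons between and within lines, which used 17 libraries. WWOX itself read 22.33, 18.95 and 18.45 CPM in the W libraries of RT-112, against 26.04, 23.52 and 25.87 CPM in the K libraries. In HT-1376 it read 18.58, 19.24 and 23.06 CPM, against 22.36, 24.74 and 16.95 CPM. In CAL-29 it read 154.92, 69.27 and 62.36 CPM, against 63.68 and 51.31 CPM in KK and KA. How transcripts starting in the vector were counted is not given in the sources used here, so these values do not check the WWOX labels, and W below means a library labelled WWOX. Of 16 urothelial and epithelial markers, all had a row in the table. In HT-1376 the keratins KRT7 (5107.72 to 8611.59 CPM), KRT18 and KRT8, the uroplakin UPK1B (268.56 to 946.48 CPM) and the transcription factors GATA3 (73.81 to 242.73 CPM) and TP63 were high, while UPK1A was at 0 in all 6 libraries and FOXA1, UPK3A and KRT20 did not exceed 0.14 CPM.

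EFNB2, EPHB2 and EPHB6 moved together in HT-1376 (see the values further on), and the sequences before their start sites are shown for that reason. Each is the 250 bases before the RefSeq start (GRCh38.p14), read along the gene's strand, with the AP-2 motif GCCNNNGGC in capitals. The EFNB2 sequence lies at chr13:106535663-106535912 on the minus strand, that of EPHB2 at chr1:22710588-22710837 on the plus strand, and that of EPHB6 at chr7:142862506-142862755 on the plus strand.
EFNB2: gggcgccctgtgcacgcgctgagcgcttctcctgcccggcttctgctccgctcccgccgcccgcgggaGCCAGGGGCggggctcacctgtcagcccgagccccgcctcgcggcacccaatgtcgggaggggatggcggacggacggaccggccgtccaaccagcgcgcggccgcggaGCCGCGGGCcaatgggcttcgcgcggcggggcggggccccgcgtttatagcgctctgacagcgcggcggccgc
EPHB2: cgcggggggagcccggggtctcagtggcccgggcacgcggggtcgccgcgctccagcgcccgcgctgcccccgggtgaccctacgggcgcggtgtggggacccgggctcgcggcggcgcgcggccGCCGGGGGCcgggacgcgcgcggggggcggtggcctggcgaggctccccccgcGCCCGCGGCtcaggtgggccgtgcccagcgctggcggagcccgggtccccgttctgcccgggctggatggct
EPHB6: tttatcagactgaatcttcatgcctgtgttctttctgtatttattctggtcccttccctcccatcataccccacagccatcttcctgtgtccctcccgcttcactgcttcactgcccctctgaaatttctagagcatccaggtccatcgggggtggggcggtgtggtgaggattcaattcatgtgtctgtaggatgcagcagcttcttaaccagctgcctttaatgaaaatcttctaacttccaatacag
The motif reads the same on both strands, so a search on either finds the same places. It occurred 2 times for EFNB2, at 182 and 73 bases before the start, and 2 times for EPHB2, at 125 and 72 bases before it. EPHB6 held no match. In windows that also took in the 50 bases after the start, 4 of the 10 family genes held the motif (EPHA1, EPHB2, EPHB4 and EFNB2), against 23.2% of 35116 promoters of the same length and 32.8% of the 10033 that belonged to genes tested here. The EFNB2 and EPHB2 windows were rich in G and C, at 78.7% and 83%, and the EPHB6 window was not, at 48%. In the GENCODE annotation EFNB2 spans chr13:106489745-106535662, EPHB2 spans chr1:22710839-22921500 and EPHB6 spans chr7:142855061-142871094. The RefSeq start used for EPHB6 lies inside its GENCODE span.

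The first question was how the family differed between the lines, whatever the variant. Levels are given as the lowest, median and highest of 6 libraries for RT-112 and HT-1376, and in the order KK, KA, WK, WA, WC for CAL-29. The test was limma on log2(CPM + 0.5) with the variant as covariate. Of the 10 genes, 10 passed an adjusted p of 0.05 between HT-1376 and RT-112, where 61.9% of all genes did. Between CAL-29 and RT-112 it was 7, against 71.5% of all genes, and between CAL-29 and HT-1376 it was 7, against 61.0%. Both counts with CAL-29 include EPHA4, and the last includes EPHB3. These genes were tested only because CAL-29 libraries reached 5 CPM, so their higher calls there give no support. Of the 10, 7 and 7 calls, 6, 5 and 5 were held under every alternative processing. The 5 against RT-112 still count EPHA4, and the 5 against HT-1376 still count EPHB3. The lines thus differed in most of the genes measured, and the members' shares are to be read against that. The median log2 difference of all genes was 0.43, 0.84 and 0.47 in these comparisons, in the order named, and that of the members was -1.21, 0.43 and 0.90. Scaling by TMM takes most of that shift out. The calls between HT-1376 and RT-112 were 2 higher and 8 lower with either scaling. Those between CAL-29 and RT-112 were 4 higher and 3 lower, but 2 higher and 4 lower with TMM. Those between CAL-29 and HT-1376 were 6 higher and 1 lower, but 5 higher and 2 lower with TMM. Where TMM turned the direction of a difference, this is said beside the gene.

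**Figure D1:**
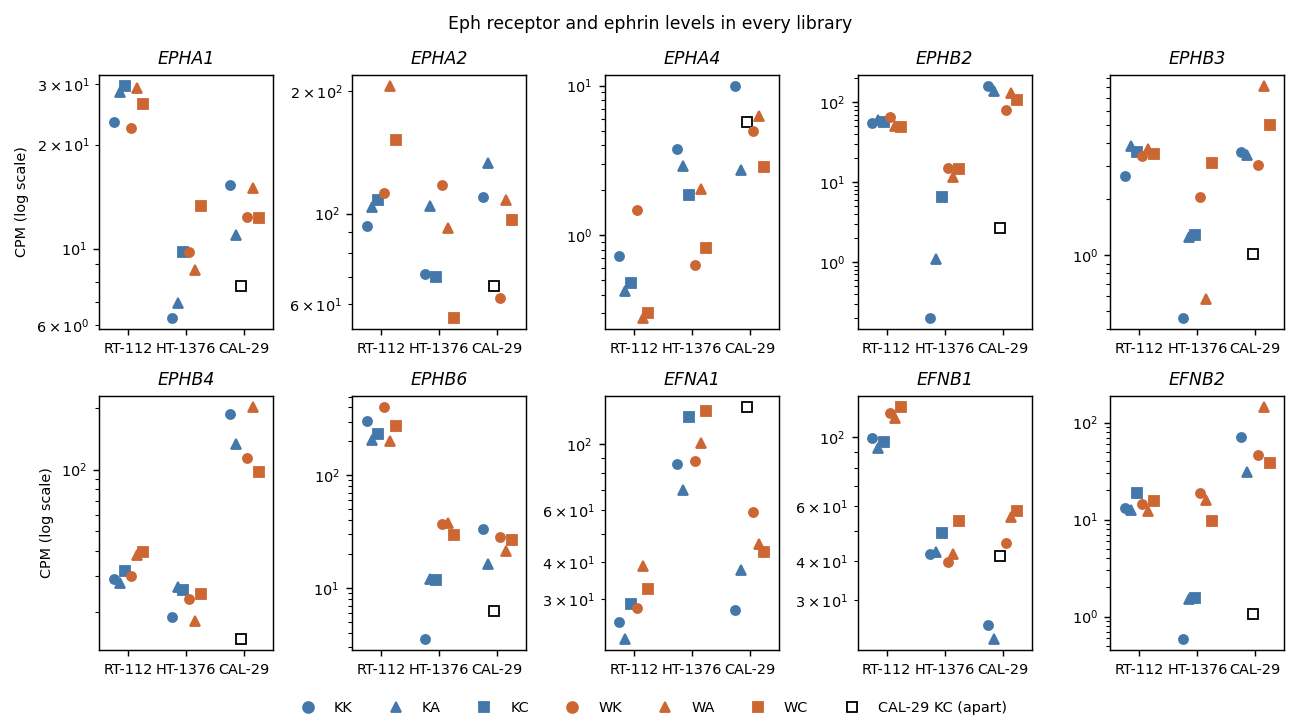
CPM on a log axis of each of the 10 genes in every library by cell line, with K variants in blue, W variants in orange and CAL-29 KC as an open square. EPHB6 lies above 200 CPM in all RT-112 libraries, and EPHB4 lies above 97 CPM in the other 5 CAL-29 libraries but at 14.78 CPM in CAL-29 KC.

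Among the class A receptors, EPHA2 was the most abundant in every line. This receptor for EFNA1 is widely expressed in epithelia and carcinomas. It read 93.13, 110.42 and 205.42 CPM in RT-112, and 55.60, 81.75 and 117.39 CPM in HT-1376, which was 1.51-fold lower (log2 difference -0.59 ± 0.23 SE, adjusted p = 0.0368). That call was held by 11 of 15 alternatives, with an adjusted p of up to 0.15. The CAL-29 libraries held 110.10, 133.26, 62.27, 107.72 and 96.26 CPM. The ranges of the 3 lines overlapped. The difference of CAL-29 from RT-112 did not pass (log2 difference -0.37 ± 0.25, adjusted p = 0.1876). With TMM scaling it passed, at -1.13 (adjusted p = 0.0016). CAL-29 did not differ from HT-1376 beyond the spread (log2 difference 0.22 ± 0.25, adjusted p = 0.4513, and -0.17 with TMM scaling). EPHA1, the founding member of the family, was highest in RT-112, where it read 22.38, 27.32 and 29.56 CPM. It read 6.31, 9.24 and 13.26 CPM in HT-1376 and 15.25, 10.95, 12.38, 15.00 and 12.26 CPM in CAL-29, so that neither line overlapped RT-112. The differences from RT-112 were 2.86-fold (adjusted p = 8.19e-06) and 1.94-fold (adjusted p = 5.94e-04), both lower. EPHA4, which binds ephrins of both classes, was scarce. It reached 1.47 CPM in RT-112, 3.75 CPM in HT-1376 and 9.92 CPM in CAL-29, where the values were 9.92, 2.71, 4.97, 6.22 and 2.87 CPM. The gene passed the filter of 5 CPM only through CAL-29 libraries, so that its higher level there gives no support from a test.

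Among the members, the class B receptors EPHB2 and EPHB6 held the largest differences between lines. EPHB6, a receptor whose kinase domain lacks catalytic activity, read 203.52, 253.77 and 401.77 CPM in RT-112. In HT-1376 it read 3.55, 20.75 and 37.83 CPM and was 15.3-fold lower (log2 difference -3.93 ± 0.40, adjusted p = 1.64e-06). In CAL-29 it read 33.13, 16.42, 28.23, 21.27 and 26.88 CPM, which was 11.0-fold below RT-112 (adjusted p = 9.18e-06). No library of the other lines reached the RT-112 range, and HT-1376 and CAL-29 overlapped (log2 difference 0.47 ± 0.43, adjusted p = 0.3568, and -0.12 with edgeR).

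EPHB2, a kinase-active class B receptor, showed another order. It was lowest in HT-1376, at 0.20, 9.01 and 15.14 CPM, against 49.55, 55.73 and 65.62 CPM in RT-112 (10.7-fold lower, adjusted p = 2.35e-04). In CAL-29 it read 159.31, 138.46, 80.06, 132.27 and 105.26 CPM, all above the RT-112 range, although the difference from RT-112 did not pass the test (log2 difference 1.13 ± 0.64, adjusted p = 0.1284). Against HT-1376 it was 23.4-fold higher (adjusted p = 4.89e-05). EPHB4, the receptor of EFNB2 known from arterial and venous identity, marked CAL-29 with 188.30, 132.82, 113.81, 202.30 and 97.56 CPM. RT-112 held 27.73, 31.01 and 39.49 CPM and HT-1376 18.02, 23.80 and 26.55 CPM, without overlap between any pair of lines. CAL-29 was 4.36-fold above RT-112 (adjusted p = 1.66e-06) and 6.21-fold above HT-1376 (adjusted p = 2.51e-07). EPHB3, a class B receptor known from the intestinal crypt, stayed at or below 8.13 CPM. It too passed the filter of 5 CPM only through CAL-29 libraries. Its higher level there than in HT-1376 therefore gives no support from a test. Its difference between CAL-29 and RT-112 did not pass the test (log2 difference 0.31 ± 0.33, adjusted p = 0.4099, and -0.37 with TMM scaling).

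The ligands did not follow one order either. EFNA1, the class A ligand among the members, was highest in HT-1376, at 69.96, 94.64 and 129.84 CPM. RT-112 held 22.10, 28.45 and 38.96 CPM, and HT-1376 was 3.34-fold higher (log2 difference 1.74 ± 0.16, adjusted p = 6.86e-07). CAL-29 lay between, overlapping RT-112, with 27.64, 37.77, 59.17, 46.31 and 43.47 CPM. Its difference from RT-112 was 0.56 ± 0.17 on the log2 scale (adjusted p = 0.0103), but -0.20 with TMM scaling (adjusted p = 0.4018). Of the 18 EFNA1 values, 3 are not whole multiples of the CPM that 1 read is worth in their library, namely 27.98 CPM in RT-112 WK, 85.79 CPM in HT-1376 KK and 88.13 CPM in HT-1376 WK. Only 9 of the 16575 genes hold any such value, and the cause was not tested. With these 3 values set to missing, the difference between CAL-29 and RT-112 was 0.43 (adjusted p = 0.0684). EFNB1, a class B ligand encoded on the X chromosome, was highest in RT-112, at 92.55, 107.72 and 125.09 CPM. HT-1376 held 39.80, 42.62 and 53.69 CPM and was 2.39-fold lower (adjusted p = 3.90e-05), and CAL-29 held 24.95, 22.50, 45.80, 55.58 and 57.86 CPM and was 2.79-fold lower (adjusted p = 1.41e-05). EFNB2, the class B ligand of EPHB4, read 12.13, 13.81 and 18.65 CPM in RT-112 and 71.64, 30.85, 45.86, 144.00 and 38.74 CPM in CAL-29, which was 3.61-fold higher (adjusted p = 0.0123, and 0.0998 with TMM scaling). In HT-1376 it ranged from 0.59 to 18.98 CPM, and CAL-29 was 10.8-fold above HT-1376 (adjusted p = 2.67e-04). With TMM scaling the folds of CAL-29 from RT-112 also moved by over 1.5 times for genes that kept their direction. The log2 differences were 1.37 against 2.12 for EPHB4, -1.70 against -0.96 for EPHA1 and -4.22 against -3.46 for EPHB6. They were -2.23 against -1.48 for EFNB1 and 1.10 against 1.85 for EFNB2. For EPHB2 it was 0.37 against 1.13, and for EPHA2 -1.13 against -0.37.

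**Figure D2:**
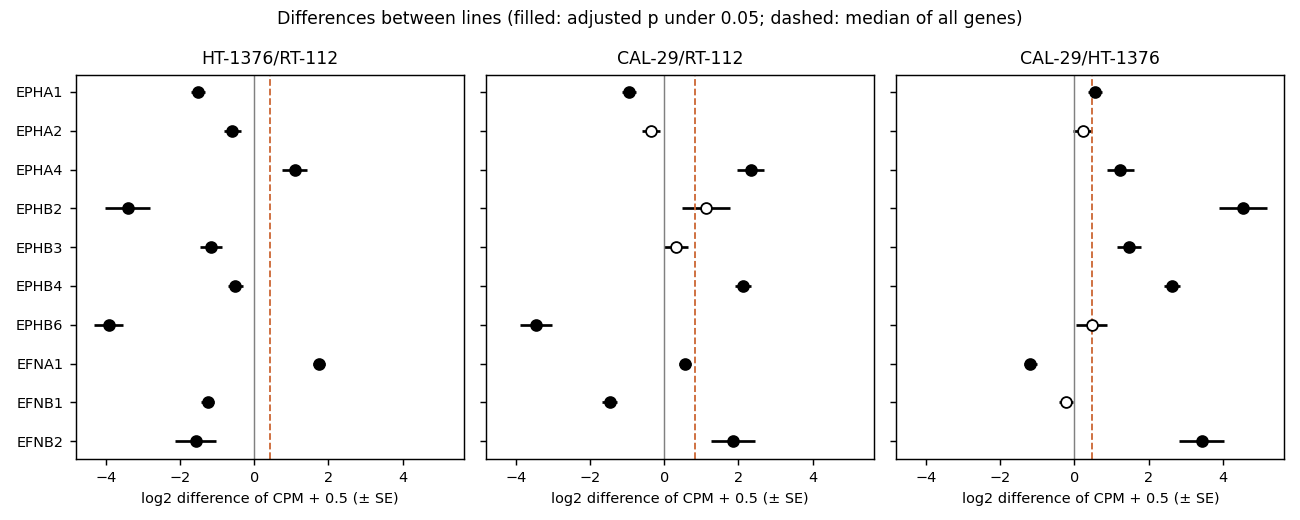
Log2 differences of CPM + 0.5 between lines with their SE for the 10 genes, filled where the adjusted p was under 0.05, with the median of all genes as a dashed line. Of the members, 10, 7 and 7 are filled in the 3 panels.

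The balance of receptors and ligands was described by the ratio of summed CPM, with no test. In RT-112 the 7 receptors summed to 431.7, 519.7 and 637.5 CPM and the 3 ligands to 127.3, 153.5 and 173.3 CPM (lowest, median, highest), and the ratio ran from 3.15 to 3.92 with a median of 3.3. In HT-1376 the ligands summed to 114.4, 153.2 and 193.2 CPM, close to RT-112, but the receptors to 104.3, 148.2 and 204.8 CPM. The ratio there ran from 0.726 to 1.39 with a median of 0.942, so that no HT-1376 library reached the RT-112 range. In CAL-29 the ratio was 4.18 in KK, 4.81 in KA, 2.02 in WK, 2 in WA and 2.47 in WC, which placed both K libraries above the 3 W libraries. The CAL-29 KC library had a ratio of 0.595, below every HT-1376 library. By class, the median ratio in RT-112 was 5.18 for class A and 2.82 for class B, in HT-1376 0.983 and 1.03, and in CAL-29 2.78 and 2.46. Class A counted EFNA1 as its only ligand, so its ratios leave out the other class A ephrins measured. Of these, EFNA4 read 32.78 to 46.30 CPM in RT-112, against 22.10 to 38.96 CPM for EFNA1. In HT-1376 it read 12.83 to 21.53 CPM, against 69.96 to 129.84 CPM for EFNA1. The class A contrast between these lines thus depends in part on the ligands counted. The genes behind the sums differed. EPHB6 was the largest receptor in 5 of the 6 RT-112 libraries and EFNB1 the largest ligand in all 6, while EPHA2 and EFNA1 led in all 6 HT-1376 libraries. Counting all family genes in the table lowered the RT-112 median to 2.28, and leaving out EPHB6 and EFNB1 raised it to 5.6. HT-1376 kept the lowest median under both.

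**Figure D3:**
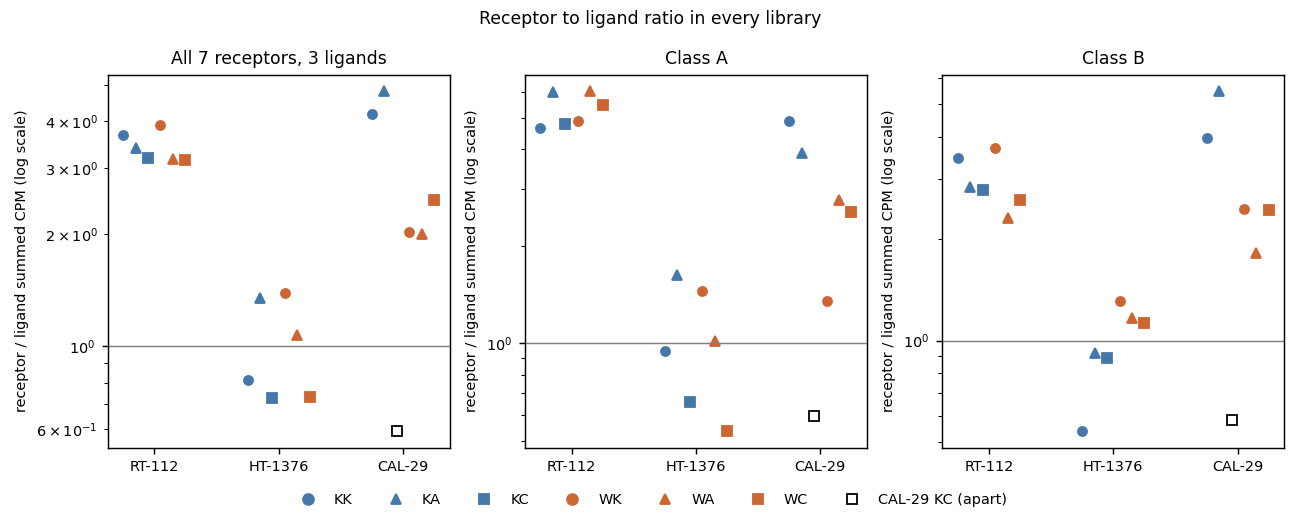
Summed receptor CPM over summed ligand CPM in every library on a log axis, for all members and by class, with a line at 1. HT-1376 libraries lie between 0.726 and 1.39 for all members and RT-112 libraries between 3.15 and 3.92.

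The second question was whether the variants changed the family. Each variant was compared with KK over the 3 lines as replicates, as the study did. In the comparisons of KA, KC, WK, WA and WC with KK, limma called 0 of the 10 members, and 0 members reached an unadjusted p under 0.05. The background was 0% of 13022 genes called in each. An unadjusted p under 0.05 went to 0.0538% of genes for KA, 0.0845% for KC, 0.292% for WK, 0.284% for WA and 0.645% for WC. The fit had no term for the line, so differences between lines counted as spread, and its 0 says little about the members. With limma-voom, edgeR or DESeq2 the count of members was also 0, as it was with the line as a replicate block in limma, edgeR and DESeq2. These comparisons included CAL-29 KC. DESeq2 with the block called 123 genes for KC and 35 for WC, none of them a member. A model with the line as covariate and WWOX, AP-2α and AP-2γ as factors called 0 members in 30 tests, again with 0% of all genes called for each factor. For WWOX, 4 members had an unadjusted p under 0.05, as did 12.3% of all genes. They were higher in W, namely EFNB2 (log2 difference 1.25 ± 0.46, adjusted p = 0.3338), EPHB6 (0.83 ± 0.32, adjusted p = 0.3528), EFNB1 (0.42 ± 0.14, adjusted p = 0.3169) and EFNA1 (0.36 ± 0.14, adjusted p = 0.3453). For AP-2α and AP-2γ it was 0 members, against 1.53% and 2.63% of all genes.

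Within HT-1376 the libraries labelled WWOX held more of 3 class B genes, namely EFNB2, EPHB2 and EPHB6. EFNB2 read 0.59, 1.53 and 1.56 CPM in KK, KA and KC and 18.98, 16.04 and 9.64 CPM in WK, WA and WC, and the fitted difference was 3.16 ± 0.50 on the log2 scale, or 8.95-fold (adjusted p = 0.0079). EPHB2 read 0.20, 1.08 and 6.45 CPM against 15.14, 11.57 and 14.63 CPM (log2 difference 2.85 ± 0.50, or 7.19-fold, adjusted p = 0.0118). EPHB6 read 3.55, 11.97 and 11.77 CPM against 36.64, 37.83 and 29.53 CPM (log2 difference 2.04 ± 0.32, or 4.10-fold, adjusted p = 0.0083). In all 3 genes every W library lay above every K library, with KK the lowest. Of all genes, 9.75% passed in this comparison and 4.70% were higher in W, and 35.6% had W and K libraries that did not overlap. The other 7 members did not pass, and EPHA4 was the nearest of them, with 3.75, 2.89 and 1.84 CPM against 0.63, 2.04 and 0.82 CPM (log2 difference -1.05 ± 0.43, adjusted p = 0.1528).

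The within-line test was a single fit of the 17 libraries, with a spread shared by the 3 lines. The calls in HT-1376 depended on single libraries and on that shared spread. Without HT-1376 KK, EFNB2 had a difference of 2.66 (adjusted p = 0.08) and EPHB2 of 2.03 (adjusted p = 0.0732). Without HT-1376 WK the adjusted p values were 0.0824 and 0.076, and EPHB2 was also lost without KA (0.0673) or WA (0.0675). A fit of all 18 libraries, with CAL-29 KC under its label, gave adjusted p = 0.0678 for EFNB2, 0.1437 for EPHB2 and 0.0548 for EPHB6. The libraries and differences of HT-1376 were the same in that fit, and only the shared spread had changed.

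Other genes moved with the same libraries. Of the 16 urothelial and epithelial markers, KRT19 and GATA3 passed the test for WWOX in HT-1376, in opposite directions. KRT19, an epithelial keratin, read 84.71, 94.93 and 12.62 CPM in KK, KA and KC of HT-1376 and 378.09, 234.66 and 308.43 CPM in WK, WA and WC (log2 difference 2.67 ± 0.51, adjusted p = 0.0169). GATA3 was lower in W (-1.06 ± 0.21, adjusted p = 0.0185), and the differences of KRT18 (-0.61), KRT7 (-0.48), KRT8 (-0.41) and UPK1B (-0.99) did not pass. COL1A2, a fibroblast collagen, read 2.50, 4.37 and 1.49 CPM against 21.45, 46.08 and 18.85 CPM, and COL1A1 1.32, 5.45 and 11.13 CPM against 14.85, 13.23 and 23.28 CPM. CDH5, an endothelial cadherin, went the other way, with 2.10, 3.06 and 4.11 CPM against 0.29, 0.19 and 0.71 CPM. The other 3 markers of stromal and blood cells fixed for this purpose have no row in the table used here. The part of these differences in the result was not tested. The W libraries of HT-1376 also had a higher median r with RT-112 (0.805, 0.778 and 0.807) than the K libraries (0.770, 0.752 and 0.751). Of 13 genes that were at 50 CPM or more in all RT-112 libraries and under 0.5 CPM in the HT-1376 K libraries, chosen after the values were seen, the median level in the W libraries was 0.271%, 0.379% and 0.243% of that in RT-112. The levels in WK, WA and WC were 137%, 116% and 69.8% of the RT-112 median for EFNB2. They were 27.2%, 20.8% and 26.3% for EPHB2 and 14.4%, 14.9% and 11.6% for EPHB6. The cause of the higher r with RT-112 was not tested.

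In RT-112 the 3 class B genes did not follow. EFNB2 read 13.30, 12.63 and 18.65 CPM in K and 14.32, 12.13 and 15.61 CPM in W (log2 difference -0.07 ± 0.50, adjusted p = 1). No member passed in RT-112, where 0% of all genes did and 21.0% had W and K libraries that did not overlap. EPHA2 was one of the 2 members with every W library higher, at 112.67, 205.42 and 151.91 CPM against 93.13, 103.91 and 108.17 CPM (log2 difference 0.58 ± 0.24, adjusted p = 0.5992), and EFNB1 was the other.

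In CAL-29 the member that passed was EFNB1, where 0.730% of all genes did. It read 24.95 and 22.50 CPM in KK and KA and 45.80, 55.58 and 57.86 CPM in WK, WA and WC. The fitted difference was 2.11-fold (adjusted p = 0.0446). WC, the only AP-2γ library of this line in the fit, did not enter that difference. It came from WK against KK (log2 difference 0.86) and WA against KA (1.29). The call was held by 8 of 26 alternatives, with an adjusted p between 0.02 and 0.13. W and K did not overlap for EFNB1, EFNA1, EPHA2 and EPHB2 in CAL-29, against 18.8% of all genes. The last pair was lower in W and did not pass the test.

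**Figure D4:**
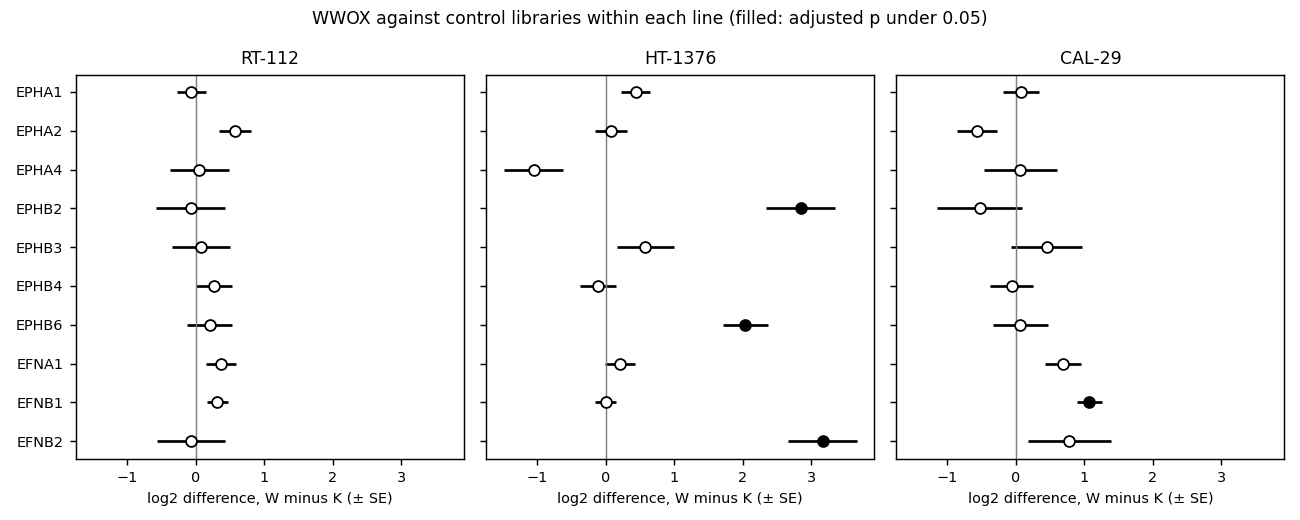
Log2 difference of W from K libraries within each line with its SE, filled where the adjusted p was under 0.05. EFNB2, EPHB2 and EPHB6 are filled in HT-1376 at 3.16, 2.85 and 2.04, and EFNB1 in CAL-29.

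Whether the WWOX difference itself differed between lines was tested as an interaction. None of the 10 members passed with limma, where 2.90% of all genes did. The smallest adjusted p values were 0.0649 for EPHB2, 0.0714 for EFNB2, 0.0753 for EPHB6 and 0.0804 for EFNB1, and 5 members had an unadjusted p under 0.05, as did 22.9% of all genes. EFNB2, EPHB2 and EPHB6 passed with TMM scaling (4.05% of all genes) and with DESeq2 (8.47%), and EFNB2 passed with edgeR (1.41%).

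No member was called for AP-2α or AP-2γ within any line. The background for AP-2α was 0.00768% of genes in RT-112 and 0% in the other lines, and for AP-2γ it was 2.45% in CAL-29 and 0.0384% each in the other lines. No member passed for a difference between lines in either effect, where 0% of all genes did. The AP-2γ arm of CAL-29 was the single library WC, which is assumed to vary like the other groups. Without CAL-29 WK as well, the CAL-29 libraries left equalled in number the terms fitted for that line. All spread then came from RT-112 and HT-1376, so calls from that fit are not given. TFAP2C, the gene of AP-2γ, did not follow the labels throughout. In the order KK, KA, KC, WK, WA, WC it read 57.95, 49.40, 263.70, 56.20, 179.87 and 142.75 CPM in RT-112, so that WA lay above WC. It read 158.24, 171.70, 213.93, 68.99, 98.03 and 162.76 CPM in HT-1376. The CAL-29 level was 338.56 CPM in WC and 70.28 to 93.09 CPM in KK, KA, WK and WA. In RT-112, TFAP2A, the gene of AP-2α, read 46.77 CPM in KA against 18.01 CPM in KK. Its level was 25.32 CPM in WA against 20.31 CPM in WK. In HT-1376 these were 100.66 against 68.99 CPM, and 69.91 against 76.90 CPM, so that WA lay below WK. In CAL-29 they were 49.88 against 35.43 CPM, and 86.67 against 61.66 CPM. As for WWOX, how vector transcripts were counted is not given here.

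Among the other members of the family, 7 have a row in the table and 4, all class A ligands, passed the filter. EFNA5 followed the pattern of the 3 class B genes in HT-1376, with 0.07, 0.34 and 0.64 CPM in K and 4.70, 2.68 and 2.85 CPM in W (log2 difference 2.22 ± 0.40, adjusted p = 0.0132). It was also the gene whose departures from the line means were most like those of EFNB2 (Pearson r = 0.94 over 17 libraries, which share their lines and variants), taken as the highest of all genes tested. Among the members themselves the likest pairs were EPHB2 with EPHB6 (r = 0.84), EPHB6 with EFNB2 (0.83) and EPHB2 with EFNB2 (0.81), where the median over 45 pairs was 0.14. These values came mainly from HT-1376, where r was 0.92, 0.95 and 0.88, against 0.46, 0.16 and 0.02 in RT-112 and -0.18, 0.17 and 0.31 in CAL-29. EFNA2, EFNA3 and EFNA4 did not pass for WWOX in HT-1376.

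Of 46 genes known to act downstream of or beside the receptors, such as adaptors, kinases and regulators of small GTPases, 42 were tested. Between HT-1376 and RT-112, 23 were higher and 5 lower, with a median log2 difference of 0.76 against 0.43 for all genes. SRC, a kinase acting near Eph receptors, was 10.5-fold lower in HT-1376 (16.44 to 19.45 CPM against 172.47 to 222.17 CPM), and FYN, of the same kinase family, was 18.8-fold higher (13.30 to 60.14 CPM against 0.47 to 1.52 CPM). Between CAL-29 and RT-112 it was 30 higher and 5 lower, and between CAL-29 and HT-1376 20 higher and 6 lower. Of all genes, 5557 were higher and 2498 lower in the first comparison, 7320 and 1994 in the second and 5646 and 2298 in the third, and the list's shares called are to be read against the 61.9%, 71.5% and 61.0% above. With TMM scaling the splits of the list were 17 and 9, 23 and 10, and 15 and 8, in the same order, and those of all genes 4012 and 3664, 4913 and 4115, and 3921 and 3497. For WWOX in HT-1376, 1 of the 42 passed, where 9.75% of all genes did. It was INPPL1, a lipid phosphatase that binds EPHA2 (log2 difference -0.76 ± 0.16, adjusted p = 0.0208). None passed for WWOX in RT-112 or CAL-29.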

How the data were processed

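CAGE libraries of 18 variants of 3 bladder cancer lines were analysed. The authors mapped reads to hg38 with BWA, and those left unmapped with HISAT2 (2.0.5 per the submitters' processing notes), and deposited CPM per gene. CPM values were whole multiples of 1 read in at least 99.97% of values per library (tolerance 0.006 CPM), so reads were recovered for count tests. Only 9 genes held other values: EFNA1, GSK3B, IL1RAP, KIF7, MAP3K5, NLK, PIK3CB, PTK2 and RASA1. The cause was not tested, and PTK2 and RASA1 were left out of the signalling list.

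Genes with 5 CPM in at least 1 library (13022) were tested with limma 3.58.1 (trend) on log2(CPM + 0.5), with Benjamini-Hochberg adjustment over all of them. Fold changes are on that scale and understate low genes. Alternatives were TMM, limma-voom, edgeR 4.0.16 and DESeq2 1.42.0, other filters and pseudocounts, and each library left out. The scripts were tested on simulated data. Replicate numbers in the variant comparison stand for the lines, so samples with a number share a line (median r of deviations 0.690 in CAL-29, 0.752 in HT-1376 and 0.858 in RT-112). Symbols were matched for 16545 genes. Coordinates are from GENCODE 44 and promoters from RefSeq. All 10 members were named, and the members and lists were chosen with earlier results of these data known. CAL-29 KC was set apart.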

Additional observations from a re-analysis of the deposited data

Results flagged for a closer look

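Among 30 sets of 6 libraries (each member in each line), the lowest library lay far from the rest in 4, where chance gives about 1 in 20. CAL-29 KC was that library for EPHB2 (2.68 CPM, next 80.06), EPHB4 (14.78 CPM, next 97.56) and EFNB2 (1.07 CPM, next 30.85). RT-112 KK was for EPHB3 (2.66 CPM, next 3.43). These last values were 48 and 63 reads, and the rule did not weigh counting noise.

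For 2 members, matched W and K libraries moved one way in one line and the opposite way in another. In CAL-29 only WK with KK and WA with KA were matched, as KC was apart. The share of all genes that did so is not given here, so the count is no result about the members. EPHA2 was higher in W in RT-112 (mean log2 difference 0.58) and lower in CAL-29 (-0.56), and EPHB2 was higher in HT-1376 (2.85) and lower in CAL-29 (-0.53). These opposed pairs of lines were not tested by themselves, and over all 3 lines the interaction gave adjusted p = 0.1914 for EPHA2 and 0.0649 for EPHB2 with limma.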

How the results depend on the processing

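The 0 members called against KK stayed at 0 with the line as a replicate block and in every other alternative run. Between CAL-29 and RT-112, with TMM, voom, edgeR and DESeq2 in that order, EFNA1 turned to -0.20, -0.19, -0.18 and -0.27 and EPHB3 to -0.37, -0.39, -0.40 and -0.49. Between CAL-29 and HT-1376, EPHA2 turned to -0.17, -0.17, -0.16 and -0.21. EPHB6 gave 0.00 with voom, -0.12 with edgeR, -0.18 with DESeq2, and -0.12 (without KK) to 0.75 (without WA) with a variant left out. These methods rescale the libraries. DESeq2 called 1 member across lines, EFNB1, for WWOX (1.73% of all genes). The 4 calls within lines became 0 with all 18 libraries (1.08% of all genes for WWOX in HT-1376) and ran from 1 (EPHB6, without HT-1376 KK or WK, with 1.41% and 1.45% of all genes) to 9 (without CAL-29 WK, with 26.5%) in the fits that left out a library. Interactions rose from 0 to 3 with TMM, 1 with edgeR and 3 with DESeq2, and ran from 0 to 4 with a library left out. The share of all genes in the fits with a library left out is not given here. That range is therefore no result about the members. The cause of the other changes was not tested. The median receptor to ligand ratio moved to 2.28 (all family genes) and 5.6 (without EPHB6 and EFNB1) in RT-112, and to 3.88 (without them) in CAL-29. At this depth 3 reads are worth 0.158 to 0.213 CPM, so the 0.20 CPM of EPHB2 in HT-1376 KK is near that limit.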
